A study of Homo sapiens with 9 samples.

Results

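The genes described here make the building blocks of RNA and DNA. They cover the enzymes of purine and pyrimidine synthesis, the enzymes that turn ribonucleotides into deoxynucleotides, 3 enzymes of folate-dependent one-carbon metabolism, and *ODC1*, the first enzyme of polyamine synthesis. The members were chosen by name from a list of 37 symbols, with earlier results of these data known. *ADSS* and *ADSS2* are symbols of 1 gene, which left 36 genes of the 19918 in the count tables. All 36 passed the filter on low counts, as did 12810 genes in all.

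The transcriptome of VCaP, an established line of human prostate cancer, was sequenced after siRNA knockdown of *IGF1R-AS1*, a long noncoding RNA. Cells labelled *IGF1R-AS1* knockdown received si025 or si033, a pair of siRNAs designed against exon 1 of the lncRNA, and cells labelled WT received a control siRNA. All groups were reverse transfected with RNAiMAX and 100 pmol of siRNA and collected 72 h later, and each held 3 libraries made from 1.3 µg of total RNA. The study describes its knockdown replicates as biological. The labels do not add whether they were separate cultures, and *p* values measure the spread between these libraries. A single cell line was used and the level of *IGF1R-AS1* itself was not analysed here. The tables therefore hold no check of the knockdown. Library totals ranged from 11649811 to 28492259 counts, and a member had between 189 and 18612 counts in a library. All 11 luminal prostate markers examined were expressed in every group, including *HOXB13* and *KRT8*. Of the markers of other cell types, *KRT5*, *CD3E* and *CDH5* had no counts in any library, and those other than *LUM* stayed under 5 CPM. Of these 16 markers, 6 had enough counts to be tested. The fibroblast marker *LUM* was the most abundant, with means of 15.6 CPM in control, 37.1 CPM with si025 and 8.39 CPM with si033. The summed level of the 5 fibroblast markers ranged from 16.7 to 18.9 CPM in control, from 36.7 to 44.0 CPM with si025 and from 8.90 to 11.5 CPM with si033. The summed luminal markers ranged from 8786 to 9042, from 10870 to 11180 and from 7834 to 8146 CPM. The part of these shifts in the results was not tested.

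Purine synthesis starts from PRPP, an activated ribose phosphate, on which the ring is built stepwise to IMP, the precursor of AMP and GMP. Pyrimidine synthesis builds its ring first and then joins it to PRPP. Ribonucleotide reductase converts ribonucleoside diphosphates to deoxy forms, thymidylate synthase adds the methyl group of thymine, and folate carries the one-carbon units that both purine and thymidylate synthesis consume. Dividing cells need deoxynucleotides most in S phase, when DNA is copied. Several of the genes are textbook targets of the transcription factor MYC, which binds the E-box sequence CACGTG together with MAX.

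Because the study concerns MYC, E-boxes were looked for in RefSeq promoter windows (GRCh38.p14), which run from 250 bases before to 50 bases after each annotated start. Windows were present for 33 of the 36 members. CACGTG, which reads the same on both strands, was found for 9 of the 33 genes (27.3%), namely *ATIC*, *DCK*, *DHODH*, *MTHFD1*, *MTHFD1L*, *NME1*, *ODC1*, *PAICS* and *PPAT*. Of all 27305 genes with a window 8.77% held it, and of the 9948 tested genes matched by symbol 12.4%. The motifs TTTNGCGC, read by E2F factors, and CCAAT, read by NF-Y, were searched on both strands. They occurred for 3 and 14 of the 33 members (9.09% and 42.4%), against 3.53% and 43.2% of the tested genes. The E-boxes of the 6 genes whose transcripts were lower with each siRNA are given in 30-base windows, 5′ to 3′ on the strand of the gene, with the E-box in capitals. A match is a description of the letters and not evidence of binding.
*ODC1*, chr2:10448024-10448053, minus strand: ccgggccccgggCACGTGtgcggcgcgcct
*ODC1*, chr2:10447990-10448019, minus strand: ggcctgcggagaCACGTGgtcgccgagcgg
*PPAT*, chr4:56435780-56435809, minus strand: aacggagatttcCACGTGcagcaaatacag
*PAICS*, chr4:56435772-56435801, plus strand: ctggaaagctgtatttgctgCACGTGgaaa
*MTHFD1*, chr14:64388326-64388355, plus strand: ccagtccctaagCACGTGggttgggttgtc
*MTHFD1L*, chr6:150866320-150866349, plus strand: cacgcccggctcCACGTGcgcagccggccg
*NME1*, chr17:51153579-51153608, plus strand: caagtgctgcgaacCACGTGggtcccgggc
*ODC1* thus held 2 E-boxes, which lay on either side of 1 annotated start and downstream of another. *PPAT* and *PAICS* are transcribed away from each other, and their facing gene bounds lie 113 bases apart. The windows show 1 and the same E-box read from either strand, which lies within the bounds of *PAICS*. Of the 9 genes with an E-box, 9 were called lower with si025 and 6 with si033. Of the other 24 genes with a window the counts were 17 and 16. Median log2 fold changes with and without an E-box were -0.45 and -0.32 with si025, and -0.22 and -0.25 with si033. Over all tested genes, 28.8% were called lower with si025 and 27.8% with si033.

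Most members fell with si025. Of the 36 genes, 33 were called at an adjusted *p* value under 0.05 (edgeR quasi-likelihood test, Benjamini-Hochberg adjustment over all genes tested), 28 of them lower and 5 higher. Among all tested genes 61.7% were called in this comparison, 28.8% lower and 32.9% higher. The median log2 fold change of the members was -0.33, against 0.02 over all tested genes. With si033, 24 members were called, 23 lower and 1 higher, whereas 54.8% of all genes were called, 27.8% lower and 26.9% higher. The median was -0.22, against 0.003 over all tested genes. When libraries were scaled by their totals alone, the calls over all genes with si033 shifted from 3449 higher and 3566 lower to 4211 higher and 2888 lower. With si025 they shifted likewise, from 4220 higher and 3688 lower to 4817 higher and 3091 lower. Both comparisons used the same control libraries. Between the siRNAs, 30 of the 36 members differed, 21 being lower and 9 higher with si025, against 60.9% of all genes, 29.7% lower and 31.2% higher. The libraries of the groups compared did not overlap for 35 of the 36 members with si025 (65.7% of all tested genes), for 25 with si033 (59.5%) and for 30 between the siRNAs (62.6%). Log2 fold changes of single members ran between -1.17 and 0.91 with si025 and between -1.20 and 0.90 with si033. The summed level of the 36 genes was 5501 to 5654 CPM in the control libraries, 4039 to 4144 CPM with si025 and 4609 to 4783 CPM with si033. CPM are counts scaled to a common library size by TMM.

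**Figure D1:**
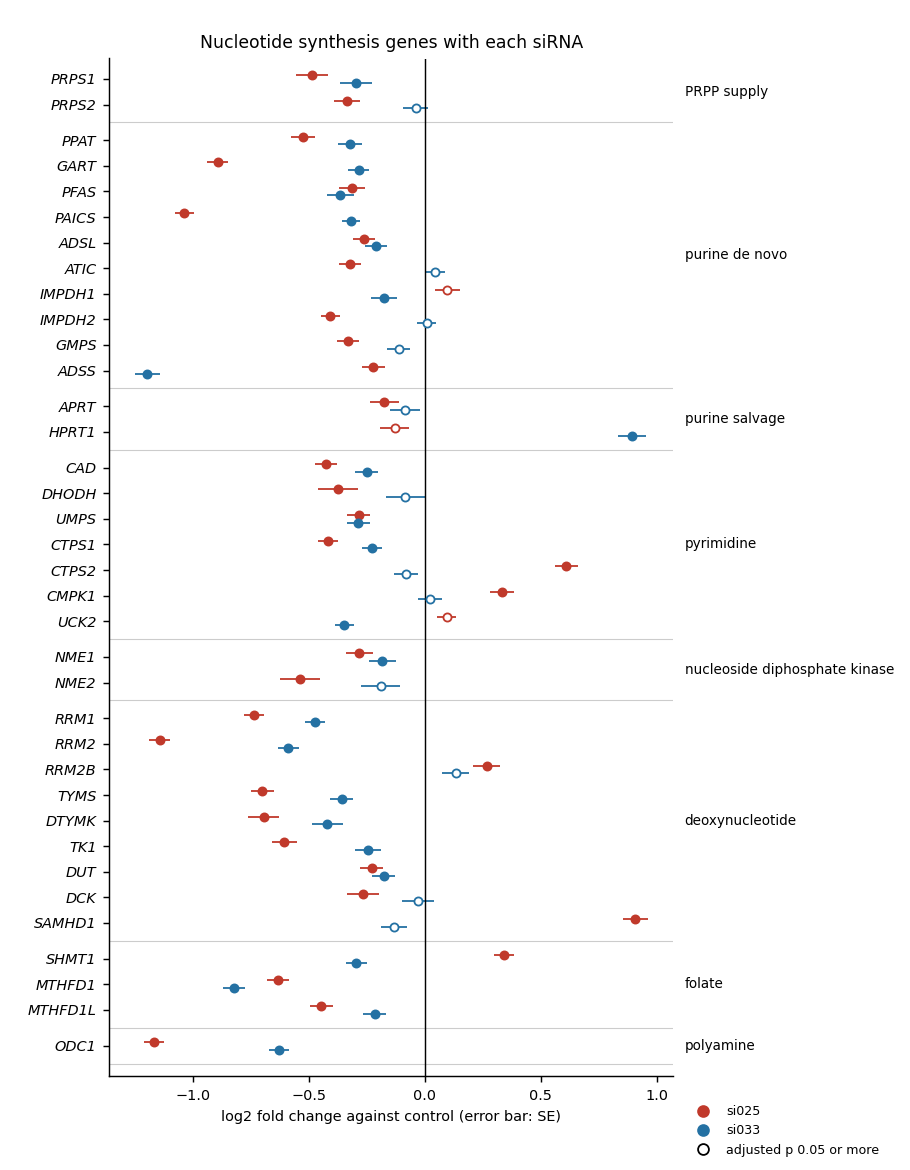
Log2 fold change against control (x axis, error bar SE) of each of the 36 genes with si025 (red) and si033 (blue), grouped by branch, with open symbols for an adjusted *p* value of 0.05 or more. Most points lie left of 0, and the filled points right of 0 are *SAMHD1*, *CTPS2*, *SHMT1*, *CMPK1* and *RRM2B* with si025 and *HPRT1* with si033.

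In the control cells, levels were compared between genes as TPM, which corrects for exon length. *IMPDH2* was the most abundant member at 669 ± 10.3 TPM (SD, n = 3), followed by *PAICS* at 548 ± 5.67 and *ODC1* at 462 ± 3.54 TPM. The least abundant were *MTHFD1L* at 20.6 ± 0.566, *PFAS* at 18.4 ± 0.767 and *DHODH* at 8.75 ± 0.220 TPM. Neighbours in this order were often within their spread, as for *RRM2* (258 ± 7.92 TPM) and *TK1* (252 ± 13.9 TPM). Levels of *NME1* (347 ± 36.5 TPM) and *NME2* (74.0 ± 8.30 TPM) may be too low. Their places in this order, and with them the first place of *IMPDH2*, are therefore uncertain. The annotation also holds a readthrough transcript, *NME1-NME2*, which covers 64.9% of the exonic bases of *NME1* and 48.5% of those of *NME2*, and read pairs that lie in exons of more than 1 gene were not counted. The readthrough itself had at most 2 counts in a library.

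First, the supply of PRPP was examined. *PRPS1* and *PRPS2* encode PRPP synthetases, which make the sugar phosphate used by purine, pyrimidine and salvage enzymes. *PRPS1* measured 37.1, 38.2 and 33.8 CPM in the control libraries, 22.9, 27.8 and 25.9 CPM with si025 and 29.4, 30.8 and 28.3 CPM with si033. No library of either siRNA reached the control range, and the log2 fold changes were -0.49 (SE 0.07, adjusted *p* = 2.76e-06) and -0.30 (SE 0.07, adjusted *p* = 0.000979). *PRPS2* measured 47.3, 46.4 and 46.2 CPM in control, 34.6, 37.9 and 37.8 CPM with si025 and 45.0, 45.6 and 45.4 CPM with si033. It was lower with si025 (-0.34, SE 0.06, adjusted *p* = 1.54e-05). With si033 the libraries lay just under the control range and the change of -0.04 (95% interval -0.15 to 0.07) was not called (adjusted *p* = 0.561). Between the siRNAs *PRPS2* differed by -0.30 (adjusted *p* = 7.36e-05). For *PRPS1* it was -0.19 (adjusted *p* = 0.0281), a call lost without si025 replicate 1, si025 replicate 3 or si033 replicate 2 (adjusted *p* of 0.135, 0.0599 and 0.0871).

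Among the 10 genes of de novo purine synthesis, 9 were called lower with si025 and 7 with si033, and none was called higher. The shares called lower over all tested genes were 28.8% and 27.8%. *PPAT*, which encodes the amidotransferase of the first committed step, measured 84.4, 81.5 and 84.6 CPM in control, 57.3, 56.5 and 60.0 CPM with si025 and 69.5, 67.7 and 63.8 CPM with si033. The 3 groups did not overlap, with log2 fold changes of -0.53 (SE 0.05, adjusted *p* = 6.50e-09) and -0.33 (SE 0.05, adjusted *p* = 1.15e-05). *PAICS*, its divergent neighbour, encodes a bifunctional enzyme of the middle of the pathway. It fell from 688, 708 and 719 CPM to 344, 350 and 336 CPM with si025, where its level was 0.487 times that of control, and to 550, 589 and 556 CPM with si033. The log2 fold changes were -1.04 (SE 0.04, adjusted *p* = 1.58e-15) and -0.32 (SE 0.04, adjusted *p* = 5.08e-07). With si025 *PAICS* was thus farther from control than any other of these 10 genes. With si033, in contrast, its value lay close to that of *PPAT*. *GART*, a trifunctional enzyme that uses folate, showed a like pattern, at -0.90 and -0.29 (adjusted *p* = 1.35e-13 and 1.19e-05). *PFAS* (-0.32 and -0.37) and *ADSL* (-0.26 and -0.21) fell with each siRNA, and no difference between si025 and si033 was called. The differences were 0.05 (95% interval -0.07 to 0.17) for *PFAS* and -0.05 (-0.15 to 0.05) for *ADSL*. *ATIC*, which completes IMP, was lower with si025 (-0.32, adjusted *p* = 1.81e-06) and not called with si033 (0.04, 95% interval -0.05 to 0.14).

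From IMP, one arm leads to GMP through IMP dehydrogenase and GMP synthetase and the other to AMP through adenylosuccinate synthetase. *IMPDH2*, the main IMP dehydrogenase of proliferating cells, measured 503, 498 and 520 CPM in control, 368, 399 and 377 CPM with si025 and 521, 503 and 505 CPM with si033. It was lower with si025 (-0.41, SE 0.04, adjusted *p* = 1.07e-08), and with si033 its libraries overlapped those of control (0.01, 95% interval -0.08 to 0.09). *IMPDH1*, its paralog, measured 86.0, 90.0 and 78.9 CPM in control, 88.6, 90.2 and 92.3 CPM with si025 and 79.6, 75.4 and 70.9 CPM with si033. Neither siRNA group was clear of control. The value of -0.18 with si033 (adjusted *p* = 0.0113) was not called without si033 replicate 3, control replicate 1 or control replicate 2 (adjusted *p* of 0.110, 0.0533 and 0.105) or on library totals alone (0.0751). The si025 value of 0.10 (adjusted *p* = 0.130) was called on library totals (0.0260). *GMPS* fell with si025 (-0.33, adjusted *p* = 2.88e-06), and with si033 the value of -0.11 lay at the threshold (adjusted *p* = 0.0503). It was called in 6 of 16 alternative fits, among them without si025 replicate 2 (0.0356), si033 replicate 2 (0.0236) or control replicate 1 (0.0461). The largest fall of any member with si033 was on the AMP arm. *ADSS* (chromosome 1, 244408492 to 244452134, minus strand) measured 89.3, 91.3 and 92.5 CPM in control, 78.0, 75.7 and 80.5 CPM with si025 and 39.6, 42.1 and 38.1 CPM with si033. All 3 groups were separate, with log2 fold changes of -0.22 (SE 0.05, adjusted *p* = 0.000453) and -1.20 (SE 0.05, adjusted *p* = 1.30e-14) and a difference of 0.98 (adjusted *p* = 2.67e-13).

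Purine salvage recycles free bases onto PRPP. *HPRT1*, which salvages hypoxanthine and guanine, was the 1 member that rose with si033. It measured 55.1, 53.2 and 59.5 CPM in control, 49.3, 52.8 and 51.7 CPM with si025 and 95.2, 112 and 106 CPM with si033. The si033 libraries lay far above the others (0.90, SE 0.06, adjusted *p* = 1.50e-11, 1.86 times the control level). With si025 all libraries were below control, yet the value of -0.13 was not called (adjusted *p* = 0.0765). It was called without control replicate 2 (0.0474), without si033 replicate 1 (0.0412) and in a fit of those 2 groups alone (0.0253). *APRT*, the adenine salvage enzyme, changed by -0.18 with si025 (adjusted *p* = 0.0219) and -0.09 with si033 (adjusted *p* = 0.266). The si025 call was lost without si025 replicate 1, control replicate 1 or control replicate 3 (adjusted *p* of 0.112, 0.0510 and 0.0812) and on library totals alone (0.101), and a si033 call was gained without si033 replicate 1 (0.0366).

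**Figure D2:**
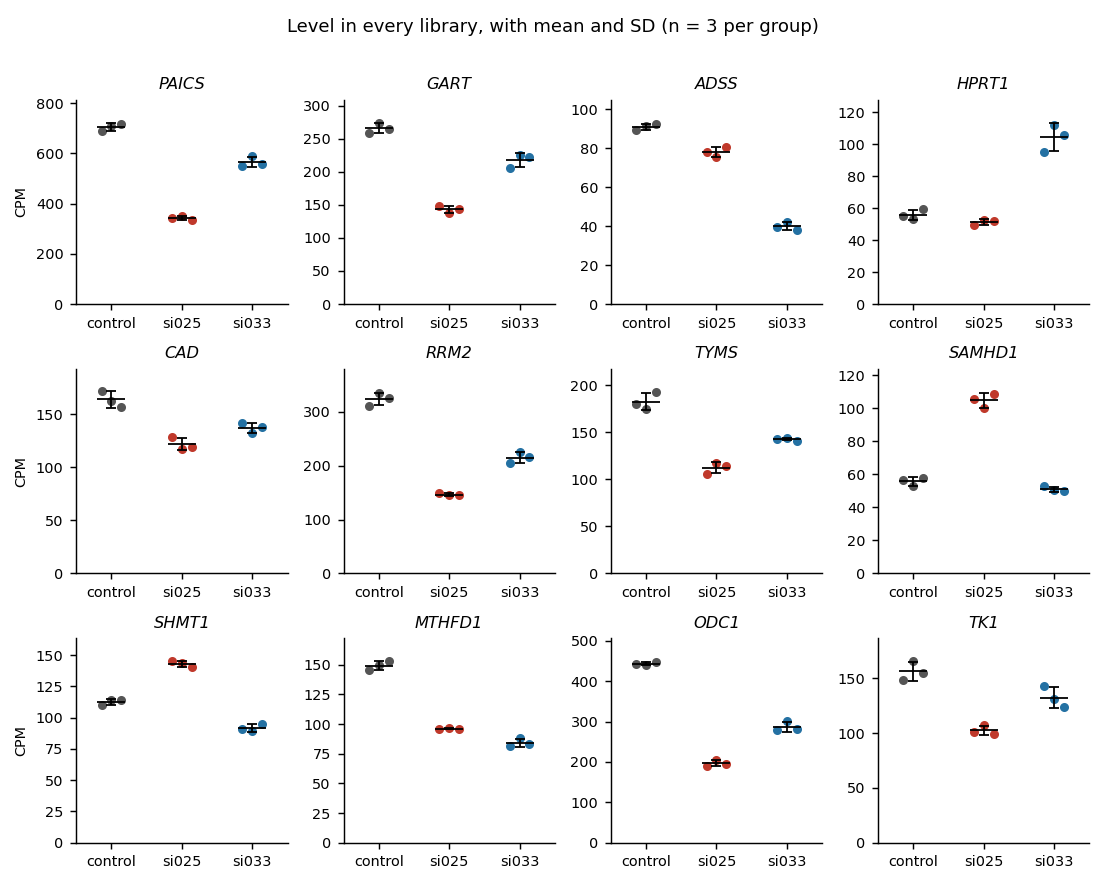
CPM (y axis, from 0) of 12 members in each control, si025 and si033 library, with points for libraries, a dash for the mean and a bar for the SD (n = 3 per group). *ADSS* and *HPRT1* stand apart with si033, *SAMHD1* with si025, and *RRM2* and *ODC1* step down from control to si033 to si025.

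The 7 pyrimidine genes were more mixed. With si025, 4 were called lower and 2 higher, and with si033, 4 were called lower and none higher. The shares over all tested genes were 28.8% lower and 32.9% higher with si025, and 27.8% and 26.9% with si033. *CAD*, the trifunctional enzyme that starts the ring, measured 172, 163 and 157 CPM in control, 129, 118 and 120 CPM with si025 and 142, 133 and 138 CPM with si033. The groups did not overlap, with log2 fold changes of -0.43 (SE 0.05, adjusted *p* = 9.88e-08) and -0.25 (SE 0.05, adjusted *p* = 0.000157). *UMPS*, which makes UMP, was lower with each siRNA (-0.29 and -0.29, adjusted *p* = 2.86e-05 and 3.84e-05), with a difference of 0.002 (95% interval -0.10 to 0.11). *DHODH*, the mitochondrial step between them, fell with si025 (-0.38, adjusted *p* = 0.000621), and its value with si033 was -0.09 (adjusted *p* = 0.413, no call). Its difference between the siRNAs (-0.29, adjusted *p* = 0.00583) was not called without si025 replicate 3 (0.0845).

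CTP synthase exists as the paralogs *CTPS1* and *CTPS2*, which diverged with si025. *CTPS1* measured 199, 207 and 212 CPM in control, 150, 156 and 157 CPM with si025 and 182, 173 and 174 CPM with si033, below control throughout (-0.42 and -0.23, adjusted *p* = 2.18e-08 and 0.000128). *CTPS2* measured 56.2, 56.5 and 60.0 CPM in control, 87.7, 87.7 and 89.4 CPM with si025 and 54.8, 54.4 and 54.6 CPM with si033. It rose with si025 (0.61, SE 0.05, adjusted *p* = 2.32e-10), and with si033 it lay just below control without a call (-0.08, adjusted *p* = 0.181). *CMPK1*, a UMP and CMP kinase, also rose with si025 (0.33, adjusted *p* = 8.05e-06) and not with si033 (0.02, 95% interval -0.09 to 0.13). *UCK2*, which salvages uridine and cytidine, fell with si033 (-0.35, adjusted *p* = 3.06e-07). With si025 its 3 libraries were all slightly above control (0.09, adjusted *p* = 0.0545), a value called under upper quartile scaling (0.0194) and on library totals (0.00408).

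Nucleoside diphosphate kinases make triphosphates from diphosphates of either kind. *NME1* measured 119, 146 and 127 CPM in control, 102, 111 and 108 CPM with si025 and 117, 118 and 111 CPM with si033. It was lower with si025 (-0.28, SE 0.06, adjusted *p* = 0.000237). The si033 value of -0.18 (adjusted *p* = 0.0115) was lost without control replicate 2, the highest library (0.177), without si033 replicate 3 (0.0760) and on library totals (0.0653). *NME2* measured 37.5, 31.2 and 32.1 CPM in control, 21.0, 25.5 and 21.8 CPM with si025 and 33.4, 28.7 and 26.8 CPM with si033. It was lower with si025 (-0.54, SE 0.09, adjusted *p* = 9.31e-06), and with si033 the libraries overlapped control (-0.19, adjusted *p* = 0.0583). That value was called without si033 replicate 1 (0.0104) or si025 replicate 2 (0.0355). These values rest on the exonic parts outside the readthrough transcript.

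**Figure D3:**
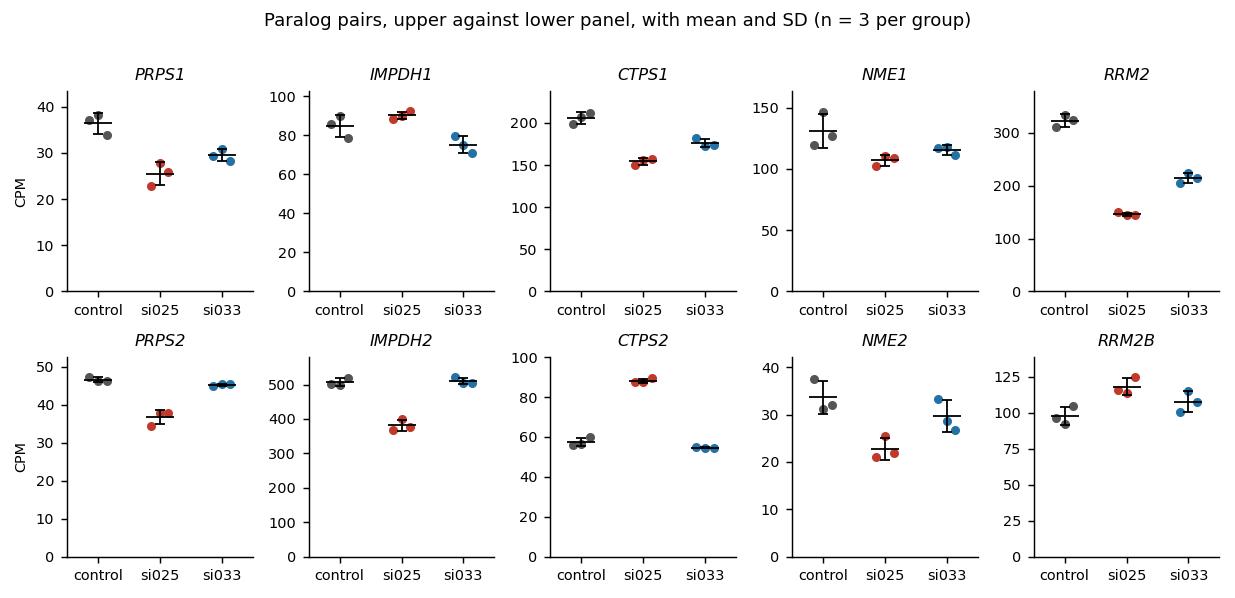
CPM (y axis, from 0) in each library of 5 pairs of paralogs, 1 pair per column, with points for libraries, a dash for the mean and a bar for the SD (n = 3 per group). With si025 *CTPS1* lies below and *CTPS2* above control, and *RRM2* lies below and *RRM2B* above it.

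Among branches of more than 1 gene, the deoxynucleotide genes had the lowest median with si025 (-0.61). Of 9 genes, 7 were called lower and 2 higher with si025, and 6 lower and none higher with si033. The shares over all tested genes were 28.8% lower and 32.9% higher with si025, and 27.8% and 26.9% with si033. *RRM2* (chromosome 2, 10122568 to 10131419, plus strand) encodes the S phase subunit of ribonucleotide reductase. It measured 311, 334 and 325 CPM in control, 150, 145 and 145 CPM with si025 and 205, 224 and 215 CPM with si033. The groups were well separated, at -1.15 (SE 0.05, adjusted *p* = 1.58e-15) and -0.59 (SE 0.04, adjusted *p* = 1.15e-10), and differed from each other by -0.56 (adjusted *p* = 3.52e-10). *RRM1*, the catalytic subunit, fell by less (-0.74 and -0.48, adjusted *p* = 1.39e-12 and 3.33e-09). *RRM2B*, the p53-inducible alternative to *RRM2*, moved the other way. It measured 96.5, 92.3 and 104 CPM in control, 116, 113 and 125 CPM with si025 and 100, 115 and 107 CPM with si033. The increase was called with si025 (0.27, SE 0.06, adjusted *p* = 0.000321). With si033 the libraries overlapped control and the value of 0.13 was not called (adjusted *p* = 0.0566), although it was in 8 of 16 alternative fits, among them without si025 replicate 2 (0.0449), si033 replicate 1 (0.0131) or control replicate 3 (0.0172).

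Thymidine nucleotides come from thymidylate synthase or from salvage by thymidine kinase. *TYMS* measured 180, 175 and 193 CPM in control, 106, 117 and 114 CPM with si025 and 143, 144 and 141 CPM with si033, again without overlap (-0.70 and -0.36, adjusted *p* = 2.43e-11 and 1.46e-06). *TK1*, the S phase thymidine kinase, measured 148, 166 and 155 CPM in control, 101, 108 and 99.4 CPM with si025 and 143, 131 and 124 CPM with si033 (-0.61 and -0.25, adjusted *p* = 2.08e-09 and 0.000600). *DTYMK*, which phosphorylates dTMP, followed (-0.70 and -0.42, adjusted *p* = 5.53e-09 and 1.19e-05). *DUT*, which removes dUTP, changed less (-0.23 and -0.18, adjusted *p* = 0.000306 and 0.00381), with no difference called between the siRNAs (-0.05, 95% interval -0.15 to 0.05). The salvage kinase *DCK* was lower with si025 (-0.27, adjusted *p* = 0.00199), and the si033 libraries spanned the control range (79.7, 105 and 90.6 CPM). Its difference between the siRNAs (-0.24, adjusted *p* = 0.00508) was not called without si033 replicate 2 (0.0571). *SAMHD1*, which degrades deoxynucleotides rather than making them, rose with si025. It measured 56.6, 52.8 and 57.8 CPM in control, 106, 99.9 and 109 CPM with si025 and 52.8, 50.4 and 50.04 CPM with si033. The change with si025 was 0.91 (SE 0.05, adjusted *p* = 9.68e-13), and si025 exceeded si033 by 1.04 (adjusted *p* = 6.54e-14). With si033 the value of -0.13 lay at the threshold (adjusted *p* = 0.0504), and was called in 6 of 16 alternative fits, among them without si025 replicate 2 (0.0357), si033 replicate 1 (0.0481) or control replicate 2 (0.0342).

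Markers of cycling cells mostly fell, as did most of these genes, although *SAMHD1* and *RRM2B* rose with si025. All 12 S phase markers, such as *PCNA* and *MCM3*, were called lower with each siRNA (median log2 fold change -0.91 with si025 and -0.46 with si033). Of 10 G2M markers, 10 were lower with si025, and with si033 8 were lower and 1 (*AURKA*) was higher (medians -0.67 and -0.42). Over all tested genes, 28.8% were called lower with si025 and 27.8% with si033. The summed S phase markers ranged from 2116 to 2142 CPM in control, from 1100 to 1167 CPM with si025 and from 1518 to 1570 CPM with si033. The summed G2M markers ranged from 3165 to 3330, from 1962 to 2048 and from 2369 to 2475 CPM. The 9 deoxynucleotide genes together ranged from 1318 to 1376, from 943 to 971 and from 1056 to 1116 CPM, and their median log2 fold change with si033 was -0.25. In bulk RNA, fewer cells in a phase and less RNA per cell cannot be told apart, and the part of cell cycle phase in these values was not tested.

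**Figure D4:**
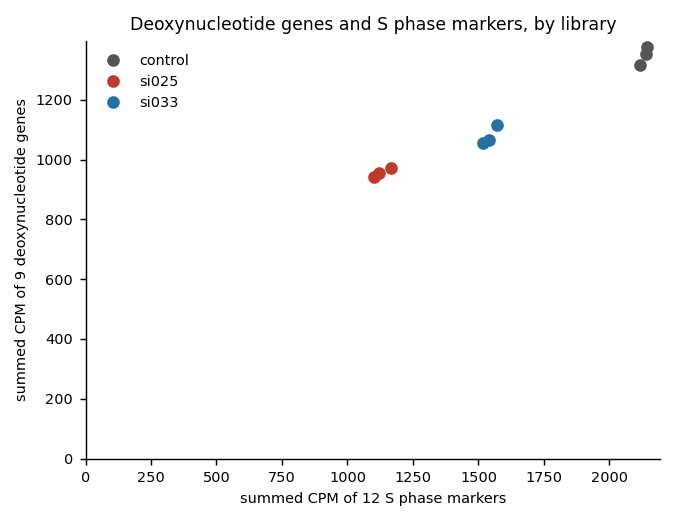
Summed CPM of the 9 deoxynucleotide genes (y axis) against summed CPM of 12 S phase markers that are not members (x axis), 1 point per library. The control libraries lie highest on both axes, the si033 libraries between and the si025 libraries lowest.

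The folate members supply the one-carbon units of *GART*, *ATIC* and *TYMS*. *MTHFD1*, the cytosolic trifunctional folate enzyme, measured 145, 149 and 153 CPM in control, 96.0, 96.4 and 96.0 CPM with si025 and 81.6, 88.2 and 83.3 CPM with si033. It fell with both siRNAs and further with si033 (-0.64 and -0.83, SE 0.05 each, adjusted *p* = 3.81e-11 and 7.70e-13), with a difference of 0.19 (adjusted *p* = 0.00146). *MTHFD1L*, its mitochondrial counterpart, fell further with si025 (-0.45 and -0.22, adjusted *p* = 4.35e-08 and 0.000665). *SHMT1*, the cytosolic serine hydroxymethyltransferase, was called in opposite directions. It measured 110, 114 and 114 CPM in control, 146, 143 and 141 CPM with si025 and 91.0, 89.0 and 95.2 CPM with si033. The changes were 0.34 (SE 0.05, adjusted *p* = 7.60e-07) and -0.30 (SE 0.05, adjusted *p* = 1.17e-05).

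*ODC1* (chromosome 2, 10440371 to 10448554, minus strand), ornithine decarboxylase, had the largest fall of any member with si025. It measured 442, 440 and 447 CPM in control, 190, 204 and 196 CPM with si025 and 279, 301 and 280 CPM with si033. Groups were separated by many times their spread, with log2 fold changes of -1.17 (SE 0.04, adjusted *p* = 5.64e-16) and -0.63 (SE 0.04, adjusted *p* = 2.15e-11) and a difference of -0.54 (adjusted *p* = 2.77e-10).

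Further genes of the same pathways were then examined from a list of 83, of which 73 were expressed highly enough to be tested. With si025, 17 were higher and 26 lower, and with si033 16 were higher and 25 lower, so that 43 and 41 were called. These shares lay near those over all tested genes (61.7% and 54.8%). Their median log2 fold changes were -0.02 and -0.04, whereas those of the members were -0.33 and -0.22. Both lists were chosen with earlier results of these data known, so this contrast is a description and not a test. With si025 28.8% of all tested genes were called lower and 32.9% higher, and with si033 27.8% and 26.9%. Of 15 further folate genes tested, si025 gave 1 higher and 5 lower calls, and si033 gave 2 higher and 8 lower calls. Among them, *SHMT2* (-0.37 and -0.45, adjusted *p* = 4.36e-07 and 3.99e-08) and *MTHFD2* (-0.60 and -0.56, adjusted *p* = 1.43e-10 and 8.89e-10), the mitochondrial enzymes that make one-carbon units from serine, fell with each siRNA. No difference was called between the siRNAs for *SHMT2* (0.08, adjusted *p* = 0.172) or *MTHFD2* (-0.05, adjusted *p* = 0.433).

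In serine synthesis, *PSAT1*, a transaminase, fell with si025 from 95.2, 98.6 and 98.3 CPM to 43.8, 44.1 and 42.5 CPM (-1.17, SE 0.05, adjusted *p* = 4.24e-15). With si033 it measured 105, 102 and 102 CPM (0.08, adjusted *p* = 0.168). In polyamine synthesis, the step after *ODC1* needs decarboxylated S-adenosylmethionine, made by *AMD1*. *AMD1* transcripts rose from 893, 887 and 932 CPM to 1695, 1678 and 1775 CPM with si025 (0.93, SE 0.04, adjusted *p* = 1.92e-14), opposite to *ODC1*, and measured 911, 1016 and 968 CPM with si033 (0.10, adjusted *p* = 0.0641). *SRM*, spermidine synthase, was lower with each siRNA (-0.50 and -0.17, adjusted *p* = 2.25e-08 and 0.00884). In purine metabolism, guanine deaminase *GDA* rose with si025 (1.31, SE 0.08, adjusted *p* = 1.91e-12; with si033 0.001). *ADSSL1*, the muscle-type paralog of *ADSS*, rose from a mean of 4.20 CPM (1.05 and 0.58, adjusted *p* = 8.59e-07 and 0.00209).

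**Figure D5:**
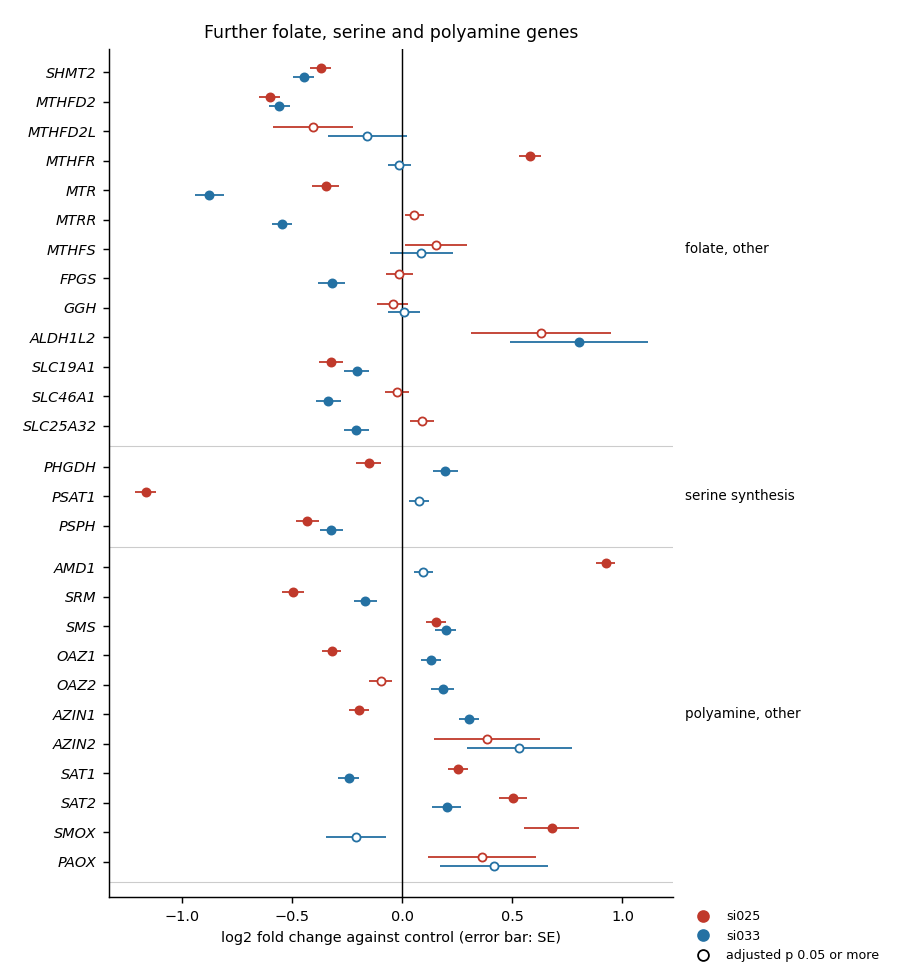
Log2 fold change against control (x axis, error bar SE) of further folate, serine and polyamine genes with si025 (red) and si033 (blue), with open symbols for an adjusted *p* value of 0.05 or more. *PSAT1* lies far left with si025 alone, *AMD1* far right with si025, and *SHMT2* and *MTHFD2* left with both.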

How the data were processed

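RNA-seq was analysed in 9 libraries of VCaP cells, grouped by sample title (control, si025, si033). Reads were aligned to hg38 with HISAT2 2.1.0 according to the submitters' processing notes. Per the file headers, the authors made the deposited raw counts with featureCounts 1.5.2 over RefSeq exons of hg38, with paired reads and the reverse strand setting. Multi-mapping and multi-overlapping pairs were not requested, so members with near-identical copies are less certain. RefSeq names pseudogenes after 14 of the 36 members, among them *PAICS*, *HPRT1*, *RRM2* and *TYMS*.

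Differential expression was tested on the counts with edgeR 4.0.16 in R 4.3.3 (quasi-likelihood F test, two-sided, TMM, filterByExpr with a minimum count of 10), with all 9 libraries and 3 group means in 1 fit. Benjamini-Hochberg adjustment covered 12810 genes, with calls under 0.05. The biological coefficient of variation was 4.13%. Each SE is the fold change over the root of F. TPM used the deposited gene lengths. Replicates of a group differed by more than sampling noise (chi-square per degree of freedom 1.72 to 5.09). Alternatives were other scalings, no filter, DESeq2 1.42.0, a replicate block, fits of 2 groups and leaving out each library.

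The members and lists were chosen with earlier results of these data known. By rule, values of every library are given for entry enzymes, paralog pairs and the 3 largest changes per comparison. Of further pathway genes, *SHMT2*, *MTHFD2*, *SRM* and *AMD1* are named, and called genes changed at least 2-fold. Another 2 genes that meet this rule are not reported here. Some other genes are named as examples. Every member had at least 189 counts in each library, and precision was lower for members with few counts. For si025 against control the SE was 0.086 for *DHODH*, the least abundant member, and 0.041 for *PAICS*.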

Additional observations from a re-analysis of the deposited data

Results flagged for a closer look

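Both siRNAs were aimed at 1 transcript, so each member was compared between them in the contrast of si025 with si033 (edgeR quasi-likelihood test). Of the 36 members 30 differed, as did 60.9% of all tested genes. Values are log2 differences, below 0 where the level was lower with si025.

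The largest were *SAMHD1* (1.04), *HPRT1* (-1.02) and *ADSS* (0.98), each of which moved mainly with 1 of the siRNAs. Higher with si025 were also *CTPS2* (0.69), *SHMT1* (0.64), *UCK2* (0.44), *CMPK1* (0.31), *IMPDH1* (0.27), *MTHFD1* (0.19) and *RRM2B* (0.13). The last (adjusted *p* = 0.0451) was not called in 10 of 16 alternatives. These included the fits without si025 replicate 1 or 3 (0.0520 and 0.238), si033 replicate 1 or 3 (0.241 and 0.116), or control replicate 1, 2 or 3 (0.0787, 0.0648 and 0.0570).

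Lower with si025 in the purine branch were *PAICS* (-0.72), *GART* (-0.61), *IMPDH2* (-0.42), *ATIC* (-0.37), *PRPS2* (-0.30), *GMPS* (-0.22), *PPAT* (-0.20) and *PRPS1* (-0.19). In the pyrimidine and diphosphate kinase branches these were *NME2* (-0.35), *DHODH* (-0.29), *CTPS1* (-0.19) and *CAD* (-0.18). Among deoxynucleotide genes they were *RRM2* (-0.56), *TK1* (-0.36), *TYMS* (-0.34), *DTYMK* (-0.27), *RRM1* (-0.26) and *DCK* (-0.24), and beyond these *ODC1* (-0.54) and *MTHFD1L* (-0.23).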

How the results depend on the processing

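Across 16 alternatives, the members called numbered 32 to 34 with si025, 22 to 28 with si033 and 27 to 30 between the siRNAs, and the further pathway genes called numbered 38 to 45, 33 to 44 and 41 to 45. All of these lay within 1.5 times the reported counts. Of 108 fold changes of members, 88 kept their direction and their side of the threshold in every alternative. Of the other 20, none that was called turned its direction. The sign turned only for values near 0. *UMPS* between the siRNAs was -0.009 with RLE normalization, -0.006 with upper quartile, -0.001 on library totals, -0.010 with DESeq2 and -0.005 in the fit of 2 groups, and -0.026 to 0.026 on leaving out a library. On library totals *PRPS2* and *DCK* with si033 were 0.014 and 0.024. Leaving out a library gave *DCK* -0.126 to 0.058, *CMPK1* -0.030 to 0.079 and *IMPDH2* -0.001 to 0.032 with si033. The cause was not tested. Scalings moved the median of all genes by at most 0.054. Same-numbered replicates did not deviate together (correlations -0.0214 to 0.0729), so the numbers were not taken as pairs. With the replicate block 33, 28 and 30 members were called, the gains with si033 being *GMPS* (adjusted *p* = 0.0491), *NME2* (0.0427), *RRM2B* (0.0443) and *SAMHD1* (0.0386).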
